A study of Marchantia polymorpha and Lactuca sativa with 27 samples.

Results

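Among the genes of red-leaved lettuce (Lactuca sativa, genotype Red fire), 204 had higher RNA levels in shoots after removal of either nitrate or phosphate from the medium than in full medium. They were chosen from the deposited lettuce table of 48985 genes, of which 30148 had at least 1 count, so they make up 0.677% of the detected genes. The measured values themselves chose them. Levels were expressed as CPM, the counts of a gene scaled to a library total of 1000000 counts, and log2 changes were taken between group means after adding 1 CPM. A gene was a member if it was at least 2-fold higher (log2 of 1) in both starvations, and if its lowest library without phosphate and its lowest library without nitrate both lay above its highest full-medium library. The height of the members above full medium is therefore how they were found, and is given below as a description. Where a count test of these contrasts is quoted, it supports nothing.

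Plants in 3 media were compared, with 3 libraries each: medium with 0 mM nitrate, medium with 0 mM phosphate, and full-strength Yamagami medium with 2 mM phosphate and 10 mM nitrate. All seedlings were 4 days old when moved to these liquid media, were kept in them for 7 days, and were of the same genotype with no altered gene named. Poly(A)-selected, directional RNA libraries were made from the shoots. The series also holds liverwort libraries, which enter only a count given at the end.

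Plants short of phosphate are known to raise genes for phosphate uptake, for the release of phosphate from organic compounds, and for the replacement of phospholipids by other membrane lipids, under the control of PHR transcription factors and SPX phosphate sensors. Plants short of nitrate lose the primary nitrate response, in which NLP factors act, and recycle nitrogen from older leaves. Both shortages are also known to slow growth and to raise anthocyanins, the pigments of red lettuce. Which of these roles the 204 members have cannot be said here. All carry identifiers made of LOC and a number, the deposited files do not pair these with names, and 0 lettuce identifiers were found in the name table at hand, which is for the liverwort. No list of pathway genes could therefore be counted and the shoot label could not be checked against marker genes, and 4 members are given by identifier, picked by the rule stated with the processing.

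Library totals ran from 18857111 to 22642271 counts, so that 1 count was worth 0.0442 to 0.0530 CPM, and 23366 genes, all 204 members included, passed the filter on low counts. One full-medium library, column C4, stood apart. On the first principal component of all tested genes, which held 58.3% of the variance, C4 lay at -36.4, against -59.2 for C2 and -65.2 for C3, and the starved libraries lay at -23.3 to -3.56 without nitrate and 65.6 to 70.7 without phosphate. C4 was thus nearer to the starved libraries than the other full-medium libraries were.

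C4 was also the full-medium library with the most RNA of the members. It was the highest of the 3 in 145 of 204 members (71.1%), compared with 36.0% of all tested genes, and its median log2 difference from the mean of C2 and C3 was 0.41 over the members and -0.02 over all tested genes. Within the starved groups the members were not evenly spread either. No nitrate library 1 was the highest of its group in 150 members (73.5%, against 41.7% of all tested genes) and library 3 the lowest in 138 (67.6%, against 39.6%). No phosphate library 1 was the highest in 103 members (50.5%, against 39.3%) and library 3 the lowest in 111 (54.4%, against 32.8%). The part of these library differences in the results was not tested, and the main values that rest on C4 are also given without it. In shoots taken whole, more cells of a type and more RNA per cell cannot be told apart.

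Together the members took a small part of each library. Their summed level was 6887, 6024 and 4952 CPM in the no nitrate libraries, 12885, 10695 and 9657 CPM in the no phosphate libraries, and 1785 CPM (C2), 1669.9 CPM (C3) and 2753 CPM (C4) in full medium. All starved libraries had to lie above full medium here, because the rule demanded it of each member. The no phosphate libraries also lay above those without nitrate, and C4 was the highest of the full-medium libraries. As means ± SD over 3 libraries, the summed level was 5954 ± 969 CPM without nitrate, 11079 ± 1648 CPM without phosphate and 2069 ± 595 CPM in full medium. The summed level was 2.88 times that of full medium without nitrate and 5.35 times without phosphate, and 3.45 and 6.41 times with C4 left out.

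**Figure D1:**
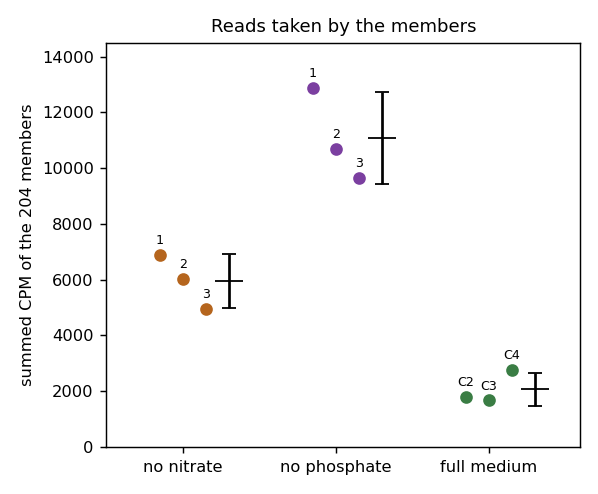
Summed level of the 204 members (CPM) in each library of the no nitrate, no phosphate and full-medium groups, with points for libraries (numbered as in the table) and, to their right, the mean and SD of 3 libraries. The no nitrate libraries sit between 4952 and 6887 CPM, the no phosphate libraries between 9657 and 12885 CPM, and the full-medium libraries between 1669.9 and 2753 CPM.

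A few members held much of this RNA. The 5 with the highest mean took 29.5% to 35.2% of the members' counts in the no phosphate libraries, 31.9% to 33.9% in the no nitrate libraries and 27.7% to 36.3% in full medium. Shares of counts depend on transcript length as well as on abundance, and no lengths were used. The member with the most counts stood at 682, 662 and 358 CPM without nitrate, 1398, 1047 and 744 CPM without phosphate and 98.6, 100.4 and 183 CPM in full medium. It was thus high in every starved library, with C4 the highest of the full-medium libraries. At the other end, 31 members averaged below 1 CPM in full medium. Without C4 this held for 32 members. For 3 members at least 1 full-medium library had no count, and for 0 members did all 3.

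Seen against full medium, the members were further above it without phosphate than without nitrate. The median log2 change was 1.27 without nitrate, with a range of 1.00 to 2.79, and 1.78 without phosphate, with a range of 1.00 to 6.30. The same medians over all tested genes were 0.01 and 0.02. With C4 left out, the medians of the 204 members were 1.45 without nitrate and 1.95 without phosphate. For 166 members the change without nitrate was the smaller of the 2, and for 38 the change without phosphate was. Both changes are taken over the same full-medium mean, so leaving out C4 could not alter these counts. At least 4-fold changes were found in 7 members without nitrate, in 78 without phosphate and in 4 in both media. At least 8-fold changes were found in 0 members without nitrate and 15 without phosphate. With C4 left out, 19 members were at least 4-fold higher without nitrate, 93 without phosphate and 14 in both media, and 0 and 25 were at least 8-fold higher. These counts describe the values that chose the members, and both changes share the same full-medium libraries.

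**Figure D2:**
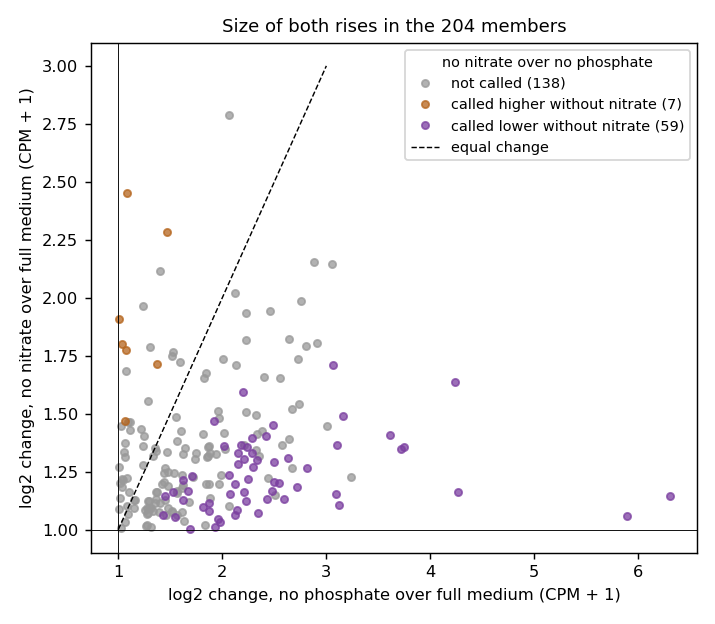
Log2 change of each member over full medium (group means of CPM + 1) without phosphate on the horizontal axis and without nitrate on the vertical axis, coloured by the direct test between the starvations, with a dashed line at equal change and solid lines at the limit of 1. Of the 204 points, 166 lie below the line of equal change, and they reach 6.30 without phosphate and 2.79 without nitrate.

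In all, 4 members were at least 4-fold higher in both media. The first is the member with the most counts, described above. The second had 45.6, 45.9 and 25.4 CPM without nitrate, 76.4, 71.9 and 47.8 CPM without phosphate, and 4.26, 5.43 and 14.3 CPM in full medium, where C4 was again the highest. The third had 84.2, 59.5 and 65.2 CPM without nitrate, 26.3, 68.3 and 30.9 CPM without phosphate, and 11.3, 9.66 and 6.62 CPM in full medium. In this one C4 was the lowest full-medium library, the starved groups overlapped, and its log2 change without nitrate, 2.79, was the largest of the 204. The fourth had 29.0, 18.9 and 10.8 CPM without nitrate, 20.6, 27.5 and 15.1 CPM without phosphate, and 0.924, 3.59 and 7.67 CPM in full medium, so that C4 came close to the lowest starved libraries.

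Many members lay near the limit of the rule. Of the members, 55 had a smaller log2 change between 1 and 1.1, while 96 further genes that met the demand of no overlap fell short at 0.9 to 1. The member closest inside the limit averaged 29.5 CPM without nitrate, 48.0 CPM without phosphate and 14.2 CPM in full medium, with log2 changes of 1.00 and 1.69. The gene closest outside it averaged 6.03, 6.07 and 2.52 CPM in these media, with log2 changes of 0.997 and 1.01. On the side of nitrate removal alone 318 genes met the rule, of which the members are 64.2%, and on the side of phosphate removal alone 1173 genes did, of which the members are 17.4%. With C4 left out, 455 genes met the nitrate side, 1413 the phosphate side and 346 both, 190 of the 204 among them. Then 76 genes lay between 1 and 1.1, and 109 at 0.9 to 1 fell short.

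The contrasts that chose the members were also fitted with a count test, given here as a description. Over all genes, edgeR's quasi-likelihood test with Benjamini-Hochberg adjustment called 6.90% higher without nitrate than in full medium and 22.8% higher without phosphate. Of the members, 166 were called higher without nitrate and 203 without phosphate. Because the rule used these contrasts, nothing is read from these counts, from their excess over the background or from the difference between them. The 38 members not called without nitrate met the rule by their group means and lack of overlap but did not pass this test, and in 33 of them C4 was the highest full-medium library. Leaving C4 out of the fit, 182 were called without nitrate and 202 without phosphate. The shares of all genes called in that fit are not given, so nothing is read from these moves. In the fit to all 9 libraries, 1 member was not called without phosphate. It had 0.373, 4.24 and 0.309 CPM there, against 0.0514, 0.249 and 0.0525 CPM in full medium, so that its mean rested on 1 library.

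**Figure D3:**
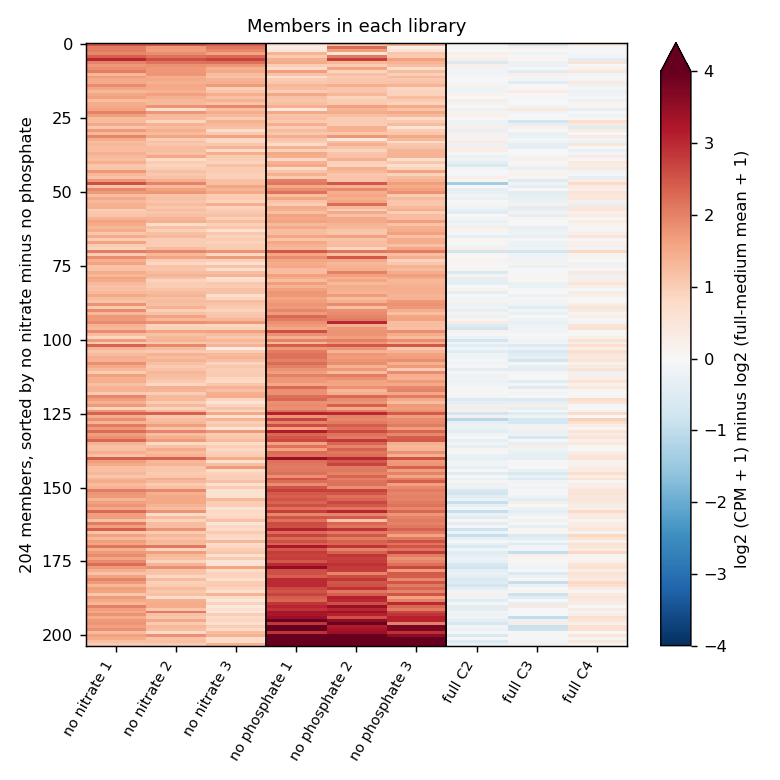
Each member (rows, sorted from highest to lowest by the fitted difference no nitrate minus no phosphate) in each library (columns), as log2 (CPM + 1) minus log2 of the full-medium mean + 1, with red above and blue below that mean. All 204 rows are red in the 6 starved libraries, the lower rows are darkest without phosphate, and C4 is the reddest full-medium column, with a median of 0.26 against -0.17 in C2 and -0.13 in C3.

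The rule did not compare the starvations with each other, but it used the same no nitrate and no phosphate values. Its nitrate side was met by 318 genes and its phosphate side by 1173. Members can therefore differ from all genes here through the way they were chosen, and the shares of all tested genes are given as a description. The no nitrate libraries were compared directly with the no phosphate libraries. Of the 204 members, 59 were lower and 7 were higher without nitrate by edgeR's quasi-likelihood test (two-sided, adjusted p under 0.05), and 138 were not called. Over all 23366 tested genes, 13.3% were called lower and 13.8% higher, beside 28.9% and 3.43% of the members. Because of the choice, nothing is read from the difference between these shares. The median log2 difference was -0.54 over the members and -0.01 over all tested genes. Levels did not overlap in 95 members that were lower and 12 that were higher without nitrate (46.6% and 5.88%), compared with 22.0% and 25.2% of all tested genes.

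These counts moved when single libraries were left out, which also leaves the test with fewer libraries. Without no nitrate library 1, 2 or 3, the count of lower members was 66, 34 and 34. Without no phosphate library 1, 2 or 3 it was 35, 42 and 57, and without C2 or C3 it was 56 and 57. The count of higher members in the same order was 3, 4 and 7, then 4, 9 and 4, then 7 and 6. With C4 out of the fit 78 of the 204 were lower and 10 higher. For these counts the shares of all genes called are not given, so a move particular to the members is not shown. Among the 346 genes chosen without C4, 146 were lower (42.2%) and 12 higher (3.47%), compared with 15.8% and 18.9% of all genes in that fit.

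**Figure D4:**
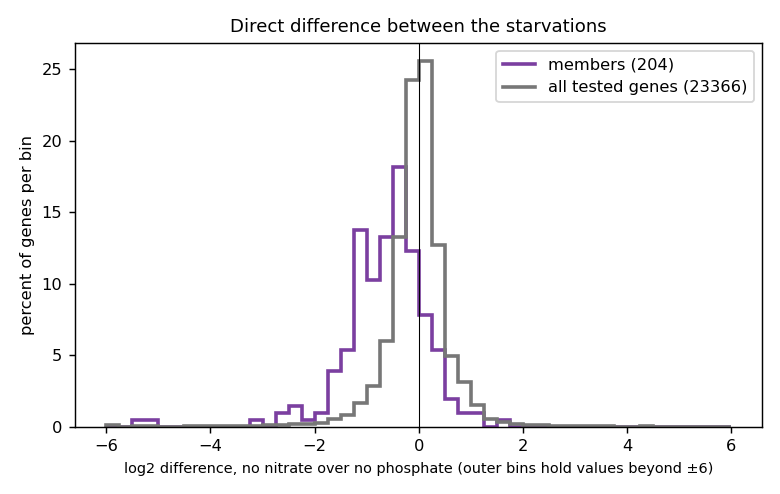
Distribution of the fitted log2 difference, no nitrate over no phosphate, for the 204 members and for all 23366 tested genes, as the percent of genes in each bin of equal width. Most members lie to the left of zero, with a median of -0.54 and a highest value of 1.54, while all tested genes are centred at -0.01.

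Being not called does not show that a member responded alike to both media. Of the 138 members not called, 109 had an estimate below 0 and 29 above 0. For 71 of them the 95% interval of the log2 difference lay between -1 and 1, so that a difference of 2-fold or more lay outside it. For the other 67 the interval reached beyond a 2-fold difference.

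The 59 members lower without nitrate had log2 differences of -0.33 to -5.46 with a median of -1.09, and 39 of them were at least 2-fold lower. Against full medium their median log2 change was 1.20 without nitrate, with 1.71 as the highest, and 2.24 without phosphate, with 6.30 as the highest. In 55 of the 59 the starved groups did not overlap, which adds no support, since the test of the same libraries had picked them.

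LOC111878778 was the member with the largest difference between the starvations. It had 3.90, 3.84 and 5.15 CPM without nitrate, 182, 153 and 229.7 CPM without phosphate, and 1.03, 1.69 and 1.47 CPM in full medium. Without nitrate all 3 libraries thus lay only a few CPM above full medium, while all 3 without phosphate were far higher. The log2 difference, no nitrate over no phosphate, was -5.46 (SE 0.198, edgeR quasi-likelihood test, adjusted p = 4.17e-08).

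LOC111891175 showed the same order of groups. It had 5.90, 6.12 and 4.33 CPM without nitrate, 186, 178 and 184 CPM without phosphate, and 1.13, 1.89 and 3.26 CPM in full medium, where C4 was the highest. The no phosphate libraries agreed closely with each other, and the log2 difference was -5.08 (SE 0.250, edgeR adjusted p = 3.07e-06).

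Other members with large rises without phosphate had more CPM without nitrate than LOC111878778 and LOC111891175. One had 71.1, 81.5 and 59.6 CPM without nitrate, 572, 451 and 277 CPM without phosphate, and 14.1, 21.2 and 30.8 CPM in full medium (log2 difference -2.63, SE 0.374, edgeR adjusted p = 0.0028). Another had 134, 107 and 85.1 CPM without nitrate, 717, 387 and 597 CPM without phosphate, and 38.9, 22.2 and 65.3 CPM in full medium. The change of the latter without nitrate over full medium was not called (log2 1.32, edgeR adjusted p = 0.0995). In both members the starved groups were apart from each other, and they lay above full medium as the rule demanded. In a member that had 39.5, 27.2 and 12.0 CPM without nitrate, 81.4, 109 and 47.7 CPM without phosphate and 6.27, 11.9 and 8.83 CPM in full medium, the difference of -1.62 (SE 0.498) missed the threshold at an edgeR adjusted p of 0.0569.

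The 7 members higher without nitrate had log2 differences of 0.34 to 1.54, and 2 of them were at least 2-fold higher. Against full medium their median log2 change was 1.80 without nitrate and 1.08 without phosphate, close to the limit of the rule. C4 was the highest full-medium library in 2 of the 7, in 47 of the 59 members lower without nitrate and in 96 of the 138 not called. Over all tested genes this held for 36.0%. With only 7 members in the first class, nothing is read from these counts. In all 7 the lowest no nitrate library lay above the highest no phosphate library, again in members already picked by the test.

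LOC111892618 had 13.5, 13.2 and 11.9 CPM without nitrate, 2.84, 4.67 and 5.61 CPM without phosphate, and 1.85, 0.598 and 2.15 CPM in full medium. The no nitrate libraries stood close together and well above all the others. The log2 difference was 1.54 (SE 0.317, edgeR adjusted p = 0.00606).

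LOC111884415 had 13.0, 9.47 and 11.6 CPM without nitrate, 3.50, 9.39 and 3.93 CPM without phosphate, and 2.31, 2.29 and 2.26 CPM in full medium. No phosphate library 2 came within 0.1 CPM of the lowest no nitrate library, while the full-medium libraries hardly differed from each other. The log2 difference of 1.01 (SE 0.331) passed the threshold narrowly (edgeR adjusted p = 0.0498), and the call was lost in 11 of 14 alternative settings, among them those that left out any 1 library other than no phosphate library 2. Over the 14 settings the log2 difference ran from 0.76 to 1.60 and the adjusted p, by edgeR or DESeq2, from 9.56e-05 to 0.155.

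**Figure D5:**
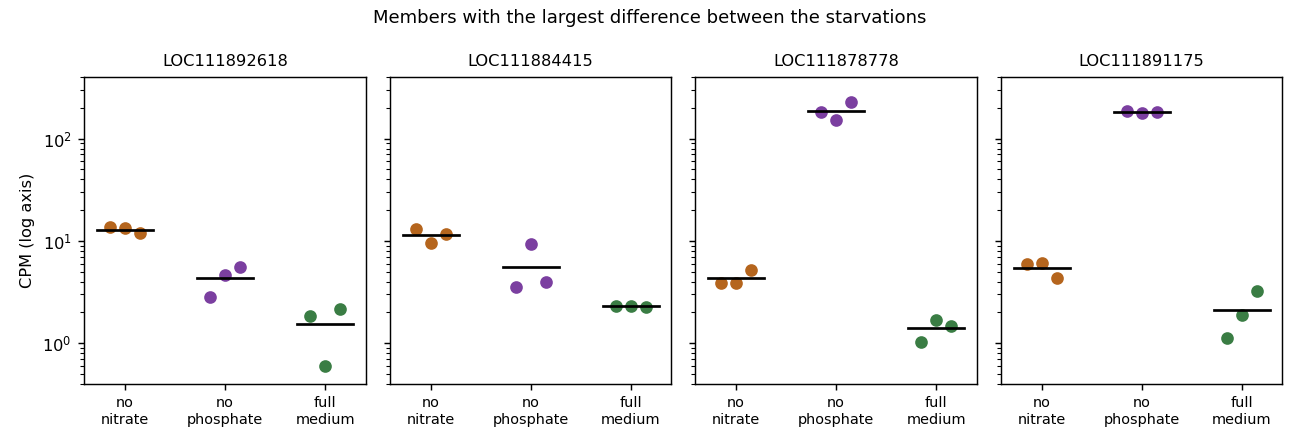
Level (CPM, log axis) of the 4 members given by identifier in the no nitrate, no phosphate and full-medium libraries, with points for the 3 libraries of a group and bars for their mean. The left pair is higher without nitrate, at means of 12.9 and 11.4 CPM against 4.37 and 5.60 CPM without phosphate, and the right pair is lower, at 4.30 and 5.45 CPM against 188 and 183 CPM.

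Of the remaining 5 members higher without nitrate, the one with the smallest adjusted p had 35.6, 38.0 and 36.3 CPM without nitrate, 20.8, 20.8 and 25.1 CPM without phosphate, and 11.6, 8.37 and 10.1 CPM in full medium. All 3 groups were apart, with a log2 difference of 0.71 (SE 0.112, edgeR adjusted p = 0.000434). The smallest difference among the 7, 0.34 (SE 0.0985, edgeR adjusted p = 0.0222), was that of a member with 62.7, 49.2 and 54.9 CPM without nitrate, 41.9, 45.9 and 43.0 CPM without phosphate, and 17.9, 16.8 and 14.0 CPM in full medium.

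The spread between libraries was wider in full medium than in the starved groups when C4 was included. The median coefficient of variation over the 204 members, which is the SD as a percent of the mean of 3 libraries, was 18.7% without nitrate, 19.5% without phosphate and 30.7% in full medium. With C2 and C3 alone the median in full medium was 18.1%, over the 203 members with a count in either. This value rests on fewer libraries, and levels in full medium were lower, so it cannot be set directly against the starved groups.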

How the data were processed

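The deposited lettuce values were whole-number counts of reads per gene with no normalization, per the file headers and the values. The submitters' processing notes name STAR 2.7 and DESeq2 without their roles. The counting program, its strand setting, its treatment of reads matching several genes, and the genome build are not given in the sources used here, so reads of overlapping, antisense or near-identical genes may have been divided untraceably. Column names C2 to C4 show full medium but not which titled sample, so these libraries carry no replicate number. Separate cultures are not stated in the labels; the p-values reflect the spread among the sequenced samples and no more, which may be technical. Replicate pairs differed by more than sampling noise (chi-square of 5.06 to 27.9 per degree of freedom, genes of at least 20 counts).

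One edgeR 4.0.16 model (R 4.3.3) was fitted to all 9 lettuce libraries with filterByExpr, TMM factors of 0.966 to 1.03 and robust quasi-likelihood F-tests, after a test on simulated data. The common biological coefficient of variation was 0.123. Benjamini-Hochberg adjustment ran over all 23366 tested genes. SE are those implied by the log2 difference and F. Alternatives used other size factors, no filter, DESeq2 1.42.0, fewer libraries, a replicate block and other pseudocounts. The members, the lists and the tests were chosen with earlier results of these data known. Planned gene lists could not be applied for want of names. The identifiers printed are, in each direction, the 2 members with the largest difference between starvations among those called, without overlap and with a mean of at least 5 CPM; other members are described without an identifier, some of them chosen after their values were seen.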

Additional observations from a re-analysis of the deposited data

How the results depend on the processing

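The number of genes meeting the rule was 204, against 573 with a pseudocount of 0.1 CPM and 50 with one of 5 CPM, which loosen and tighten the demand on low genes by construction, and 346 without full-medium column C4; leaving out each library in turn gave 168 to 346. Of members lower without nitrate than without phosphate, 59 were called; leaving out each library gave 34 to 78, and a DESeq2 Wald test 75. Of members higher there, 7 were called, with 3 to 10 on leaving out each library. With C4 left out both of the choice of members and of the model, an alternative added after seeing the data, 146 were lower and 12 higher; out of the model alone, 78 and 10. The cause of the moves other than those with the pseudocount was not tested. Shares of all genes called are not given beside these counts. The median difference between starvations stayed between -0.62 and -0.46, and the summed levels stayed within 1 SD. LOC111892618, LOC111878778 and LOC111891175 kept their call and direction in all 14 alternatives each, while LOC111884415 kept its direction and lost its call in 11.

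The no nitrate and no phosphate titles share replicate numbers. Same-numbered libraries correlated at 0.0262, 0.0504 and 0.0586 in their deviations from the group means, and other pairs at -0.0815 to 0.0405. Each library correlated best with its own number, except no nitrate library 1, which correlated best with no phosphate library 2 (0.0405). Whether same-numbered libraries form pairs was not tested. With a replicate block, fitted to these libraries alone, 116 members were lower and 10 higher, against 77 and 8 in that fit without the block. The shares of all genes called in these fits are not given. With the block, the log2 difference of LOC111884415 was 1.09 (edgeR adjusted p = 0.155). Full-medium columns carry no such numbers, so no block could be used against full medium. At 1 count worth 0.0442 to 0.0530 CPM, members below 1 CPM in full medium rest on few counts.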

Other observations

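In the row order of the deposited lettuce table, whose basis the file does not state, 12 of the 204 members (5.88%) stood directly beside another member, in 5 runs of at most 3 rows, compared with 260 of 29944 other detected genes (0.868%) that stood beside a member. Such genes may share reads if they are near-identical copies. In 1 run of 3 the mean levels were 11.0, 10.1 and 48.2 CPM without nitrate, 13.0, 15.8 and 257 CPM without phosphate, and 4.23, 2.66 and 18.2 CPM in full medium, so the size of the change without phosphate differed within the run.

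The rule was met by 0.677% of the detected genes in lettuce, or 1.15% (346 genes) with full-medium column C4 left out. Applied in the same way to the liverwort Marchantia polymorpha, whose gemmalings spent a shorter time in these media, it was met by 348 genes in the line labelled Mpwrky10 (2.03% of 17180 detected genes) and 484 genes in the wild type Tak-1 (2.82%). The 17180 genes had a count in any library of either liverwort line, while each of these 2 counts used the libraries of 1 line. The lettuce share used the lettuce libraries for both, so the shares have unlike bases. The files do not pair genes between the species, and times and tissues differ, so no test was made.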
